A study of Rattus norvegicus with 4 samples.

Results

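miR-101 is a pair of paralogous microRNAs, miR-101a and miR-101b, whose 3p arms are best known for repressing EZH2. The names were chosen by spelling, as all that start with rno-miR-101a or rno-miR-101b, and 4 of the 762 names in the table of all 4 libraries met that rule, the same 4 as among the 594 names of the table that holds PC12 alone. The 3p and 5p arms of both hairpins were found. They are rno-miR-101a-3p, rno-miR-101b-3p, rno-miR-101a-5p and rno-miR-101b-5p, written below without the species prefix. The pair had been picked out by its measured values, because miR-101a-3p was among the names with the largest deficit in RMT1 vesicles, so its difference between the cell lines is given here as a description, with no test. MicroRNA was sequenced from extracellular vesicles (EVs), the membrane particles that cells release, of a pair of rat tumour lines. RMT1 EV is 2 libraries from RMT1, labelled a breast cancer cell. PC12 EVd and PC12 EVu are 1 library each from PC12, a pheochromocytoma line labelled a catecholamine cell. The labels name no treatment and do not say what d and u stand for.

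A microRNA is cut from a hairpin precursor, and one strand guides a silencing complex to messenger RNAs that match its seed, bases 2 to 8 from the 5′ end. EZH2 is the catalytic subunit of Polycomb repressive complex 2, which methylates histone H3 and keeps genes silent. Loss of miR-101 with gain of EZH2 is known from human prostate and other carcinomas. Vesicle RNA alone was measured in the libraries used here, so less miR-101 in the cells and less sorting of it into vesicles cannot be told apart, and neither can cell line and any batch of preparation.

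The mature sequences are shown because the split between the paralogs rests on 1 base. They are RefSeq sequences of rat assembly GRCr8, written 5′ to 3′ with the seed in capitals, and all 4 names had one.
miR-101a-3p: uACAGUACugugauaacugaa
miR-101b-3p: uACAGUACugugauagcugaa
miR-101a-5p: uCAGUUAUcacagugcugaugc
miR-101b-5p: uCGGUUAUcaugguaccgaugc
The 3p arms share the seed and differ once in 21 bases, by A16G, counted from 1 at the 5′ end with the base of miR-101a first. The 5p arms are the passenger strands and differ at 5 of 22 bases, once within the seed, by A3G. Of 693 rat mature names with a RefSeq sequence, the miR-101 3p arms were the only 2 with this seed. One more, miR-144-3p of red blood cells, shares bases 2 to 7.
miR-144-3p: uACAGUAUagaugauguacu

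The hairpins are shown with both arms in capitals, since they come from separate loci and the arms are described below.
miR-101a hairpin: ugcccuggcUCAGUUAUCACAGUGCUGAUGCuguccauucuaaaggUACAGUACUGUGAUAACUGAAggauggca
miR-101b hairpin: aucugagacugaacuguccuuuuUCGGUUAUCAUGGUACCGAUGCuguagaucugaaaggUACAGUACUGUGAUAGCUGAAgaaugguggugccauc
The PC12 table places miR-101a-3p on chromosome 5 at 124050134 to 124050154, minus strand, and miR-101b-3p on chromosome 1 at 254503453 to 254503473, plus strand, in a build it does not name. No other name of that table lies within 10000 bases of either. In the GRCr8 annotation the miR-101b hairpin lies inside the gene Rcl1, between Ak3 and Jak2, and the miR-101a hairpin lies inside an uncharacterised long noncoding RNA gene beside Jak1.

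Counts in the table of all 4 libraries were recovered from the authors' log2 values and sum to 799224 and 716940 in RMT1 EV 1 and 2, 338233 in EVd and 436840 in EVu. A count of 0 there allows up to 3 counts, a share of 0.000375% and 0.000418% in RMT1, 0.000887% in EVd and 0.000687% in EVu. Marker lists of the labelled cell types differed between the lines, and their part in the results below was not tested. Their level is given in CPM, the count scaled to a common library total. The 6 epithelial names were miR-200 family members with miR-205 and miR-203a-3p. Together they reached 11309 and 10981 CPM in RMT1, against 186 CPM in EVd and 195 in EVu. None was at 0 in any library, but miR-200b-3p with 1 count and miR-205 with 2 in EVd lie within what a 0 allows. The 5 endocrine and neural names, miR-375-3p, miR-7a-5p, miR-9a-5p, miR-129-5p and miR-218a-5p, together reached 1509 and 1583 CPM in RMT1, with miR-375-3p and miR-9a-5p at 0 in both, against 41143 in EVd and 53979 in EVu.

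miR-101 held a far larger share of the counts in PC12 vesicles than in RMT1 vesicles, and the paralogs were not lower in RMT1 to the same degree. The 3p names together held 0.0144% and 0.0119% of RMT1 counts, against 1.03% of EVd (exact binomial 95% interval 0.999% to 1.07%) and 0.984% of EVu (0.955% to 1.01%). The pooled share was 76.2-fold lower in RMT1 by library totals (counting interval 66.2 to 88.2), and 27.4-fold lower in the authors' scaling. Nearly all that was left in RMT1 was miR-101b-3p.

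miR-101a-3p had 3 and 1 counts in the RMT1 libraries, against 1640 in EVd and 2059 in EVu. Both RMT1 values lie at or under the count that a 0 allows, and both PC12 values lie far above them. Differences between the lines were common: the limma fit given further on called 37.1% of 278 names lower in RMT1 and 33.1% higher. The share of all names whose values do not overlap between the lines was not counted. In CPM miR-101a-3p averaged 2.57 ± 1.67 in RMT1 (SD, n = 2), against 4849 in EVd and 4713 in EVu. By pooled shares it was 1809-fold lower in RMT1, with a counting interval of 706 to 6643 that is wide because it rests on 4 RMT1 counts. That interval does not cover any loss of low counts from the table of all 4 libraries (given with the passenger arms). In the authors' scaling it was 742-fold lower, a log2 difference of -9.54, the sixth lowest of 278 names with a mean of at least 10 on the linear scale.

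miR-101b-3p had 112 and 84 counts in the RMT1 libraries, against 1853 in EVd and 2241 in EVu. The RMT1 libraries did not differ beyond counting error, with 140 CPM (115 to 169) and 117 CPM (93.5 to 145), and both lay below either PC12 library. It averaged 129 ± 16.2 CPM in RMT1 (SD, n = 2), against 5478 CPM in EVd and 5130 in EVu. The pooled share was 40.9-fold lower in RMT1 (35.4 to 47.4). In the authors' scaling it was 14.7-fold lower, a log2 difference of -3.88, which ranked only 87 from the lowest of the 278 names. The let-7 names were high in RMT1 (values further on), and with let-7 and its relative miR-98 left out of the totals miR-101b-3p was 16.3-fold and miR-101a-3p 720-fold lower.

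**Figure D1:**
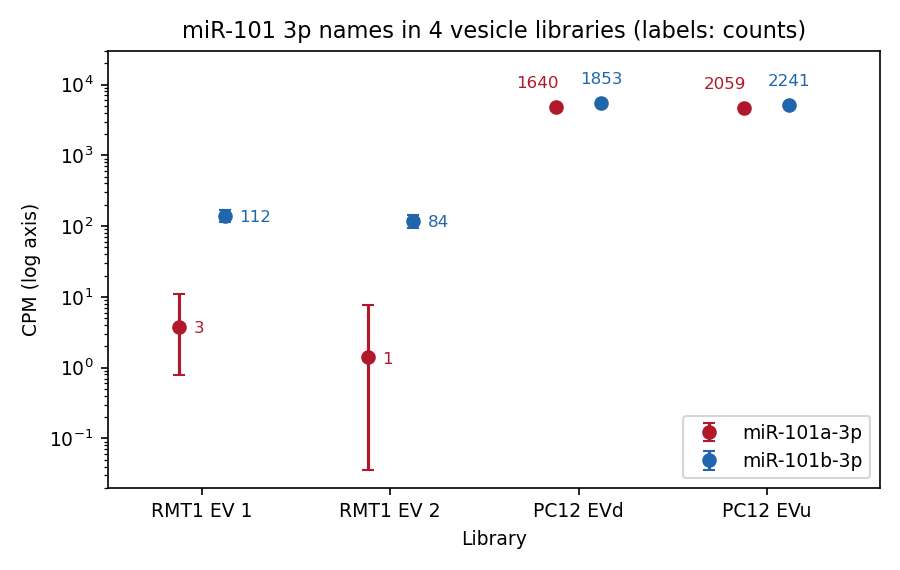
CPM (log axis) of miR-101a-3p and miR-101b-3p in each library of the table of all 4 libraries, with exact binomial 95% intervals and the counts printed beside the points. The PC12 points of both names lie between 4713 and 5478 CPM, while in RMT1 miR-101b-3p lies at 140 and 117 CPM and miR-101a-3p at 3.75 and 1.39 CPM.

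By level, miR-101b-3p held rank 97 of 762 in RMT1 EV 1 and a place close below it in RMT1 EV 2, against rank 36 in both EVd and EVu. Many of the 762 names were at 0: such names tied at rank 278 in RMT1 EV 1, 264 in RMT1 EV 2 and 365 in EVd. miR-101a-3p held rank 215 and 238 in RMT1, where a few counts decide the rank, against 39 in EVd and 42 in EVu. The order of the libraries was the same for both names, with EVd highest, EVu next and RMT1 lowest. EVd and EVu are neighbours in that order: for miR-101a-3p their intervals overlap, at 4617 to 5089 CPM and 4512 to 4921 CPM, and for miR-101b-3p they do too, at 5232 to 5733 CPM and 4920 to 5346 CPM.

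The split between the paralogs differed accordingly. miR-101b-3p made up 97.4% of the 3p counts in RMT1 EV 1 (95% interval 92.6% to 99.5%, 112 of 115) and 98.8% in RMT1 EV 2 (lower bound 93.6%, 84 of 85). It made up 53.0% in EVd (51.4% to 54.7%) and 52.1% in EVu (50.6% to 53.6%). The PC12 libraries thus held both paralogs in nearly equal number, and the RMT1 intervals lie wholly above theirs. The PC12 table gave 52.2% for EVd and 51.1% for EVu. These values use the same counts as the difference above and were not tested. Their intervals cover counting error only. Names with 8 to 50 counts in the PC12 table kept a median of 3.89% (EVd) and 4.76% (EVu) in the table of all 4 libraries. Whether such a loss lowered the RMT1 counts of miR-101a-3p, and so widened the split, was not tested. The name given to a read rests on base 16, and how mismatches were counted is not given in the sources used here, so the part of the 4 RMT1 counts of miR-101a-3p that could be misread miR-101b-3p was not tested.

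**Figure D2:**
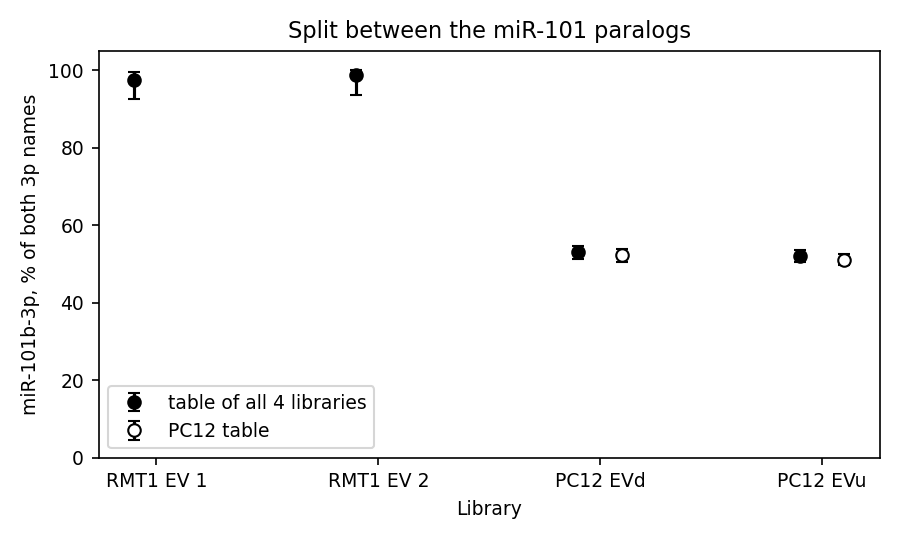
Share of miR-101b-3p among the counts of both 3p names, in percent, by library, with exact binomial 95% intervals, from the table of all 4 libraries (filled) and the PC12 table (open). RMT1 lies at 97.4% and 98.8% and the PC12 libraries between 51.1% and 53.0%.

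To see how far such splits shift elsewhere, a comparison chosen after these values were seen took every pair of names of equal length that share a seed, differ by 1 base and average at least 10 counts each. There were 16 pairs, some with a name in common. The log2 ratio of miR-101b-3p to miR-101a-3p, with 0.5 added to each count, averaged 5.41 in RMT1 and 0.15 in PC12. This shift of 5.26 was the fourth largest of the 16 in size. Larger ones were those of miR-181d-5p to miR-181b-5p (-7.60), miR-27b-3p to miR-27a-3p (-7.11) and miR-29c-3p to miR-29a-3p (-6.72), and miR-23b-3p to miR-23a-3p followed at -4.98. miR-181d-5p had 1 and 0 counts in RMT1, against 51 in EVd and 90 in EVu, so the added 0.5 sets much of its shift. miR-196b-5p and miR-19a-3p, of other pairs, had 0 counts in both RMT1 libraries. These names, like miR-101a-3p with 3 and 1, met the mean of 10 through PC12 alone. The sizes of such shifts are not well measured. As far as such counts allow, the shift of miR-101 lay within the range of these other pairs. miR-29c-3p, for example, had 29 and 23 counts beside 4802 and 4999 of miR-29a-3p in RMT1, against 8988 beside 17279 in EVd and 9573 beside 15615 in EVu. miR-7b stayed rare throughout, with 0.252% and 0.265% of its pair in RMT1, 0.115% in EVd and 0.490% in EVu.

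**Figure D3:**
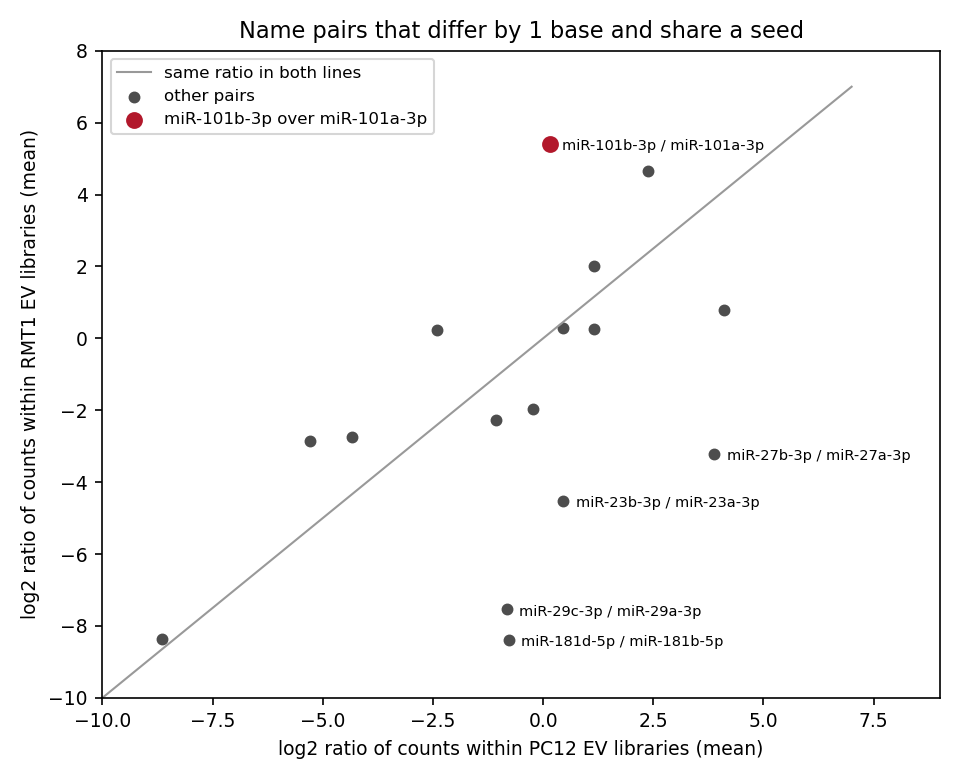
Mean log2 ratio of counts (0.5 added to each) within RMT1 EV libraries, on the vertical axis, against that within PC12 EV libraries, on the horizontal axis, for 16 pairs of names that share a seed and differ by 1 base. The line marks equal ratios, and the miR-101 pair lies 5.26 above it.

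The passenger arms were scarce and their counts depended on the table. In the PC12 table miR-101a-5p had 21 counts in EVd and 47 in EVu, and miR-101b-5p had 8 in EVd and 14 in EVu. The 5p arm made up 1.20% of both miR-101a arms in EVd (0.743% to 1.83%) and 2.03% in EVu (1.49% to 2.69%). For miR-101b it made up 0.421% in EVd (0.182% to 0.828%) and 0.587% in EVu (0.322% to 0.984%). In the table of all 4 libraries the same PC12 libraries had 0 and 2 counts of miR-101a-5p in EVd and EVu, and 2 and 1 of miR-101b-5p. Both RMT1 libraries had 0 of each, so no fold is given. Low names lost most of their counts between the tables in general: of 269 names with 8 to 50 EVu counts in the PC12 table, 128 were at 0 in the other. Some higher names were lost as well. Of names with 1000 to 3000 counts in the PC12 table, 6 of 32 in EVu and 3 of 25 in EVd were at 0 in the other. The 3p arms kept 94.7% and 97.9% of their EVd counts and 90.7% and 94.6% of their EVu counts, miR-101a-3p first. For RMT1 the joint table alone was used, so whether it lowered the few miR-101a-3p counts there was not tested.

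The miR-101 3p arms differed little between EVd and EVu. In the PC12 table miR-101a-3p had 1732 counts in EVd and 2269 in EVu, or 4476 and 4430 CPM, a ratio of 1.01 (95% counting interval 0.949 to 1.08). miR-101b-3p had 1892 counts in EVd and 2369 in EVu, or 4889 and 4625 CPM, a ratio of 1.06 (0.995 to 1.12). In the table of all 4 libraries the log2 ratio of miR-101b-3p was 0.095 with an interval of 0.0052 to 0.18, just above 0. That of miR-101a-3p was 0.041. Both lay above the median there, -0.19 over 246 names with a mean of at least 10 counts. The log2 ratios of the PC12 table were 0.015 and 0.080, beside a median of 0.056 over the 472 microRNA names with a mean of at least 10 counts. The passenger arms had wider intervals, with log2 ratios of -0.75 (-1.57 to 0.013) for miR-101a-5p and -0.39 (-1.86 to 0.95) for miR-101b-5p. None of the 4 names passed a fold of 2, which 13.8% of the 472 names did upward and 6.99% downward. There are no replicates of EVd or EVu, so these intervals cover counting error only.

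**Figure D4:**
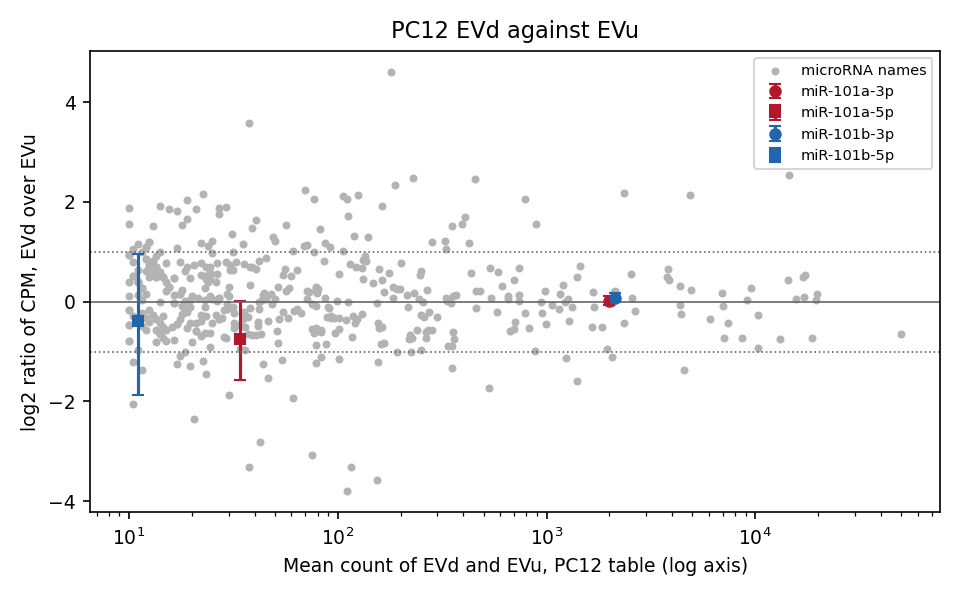
Log2 ratio of CPM in PC12 EVd over EVu against the mean count (log axis) for 472 microRNA names of the PC12 table, with the 4 miR-101 names and their 95% counting intervals in colour and dotted lines at a fold of 2. The 3p arms lie at 0.015 and 0.080 with short intervals, and the 5p arms lie below 0 with intervals that reach it.

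The seed relative miR-144-3p was scarce in RMT1. It had 2 and 0 counts there, against 0 in EVd and 30 in EVu, and 5 and 36 in EVd and EVu in the PC12 table. It is a blood-cell name, and the blood and liver list that holds it (6 names, miR-451-5p, miR-486 and miR-122-5p among them) summed to 62.6 and 57.2 CPM in RMT1, 85.7 in EVd and 1449 in EVu. Of its names, 1 and 4 were at 0 in the RMT1 libraries, 1 in EVd and 0 in EVu.

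Profiles over the 4 libraries were compared by the root mean square difference of centred log2(CPM + 1), among 250 names with a mean of at least 10 counts. The names most like miR-101a-3p were miR-218a-5p (0.33), miR-384-5p (0.44), miR-384-3p (0.49), miR-29c-3p (0.60) and miR-129-5p (0.66), all with 29 counts or fewer in each RMT1 library. Those most like miR-101b-3p were miR-128-3p (0.26), miR-146b-5p (0.29), let-7a-1-3p (0.29), miR-194-5p (0.31) and miR-140-3p (0.31). The paralogs were not near each other, with a difference of 2.57. miR-101b-3p stood at place 72 from miR-101a-3p, and miR-101a-3p at place 156 from miR-101b-3p. The size of that difference depends on the 3 and 1 RMT1 counts of miR-101a-3p.

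Other microRNAs reported, mostly in human or mouse cells, to repress EZH2 were partly higher and partly lower in RMT1. The list was chosen with earlier results of these data known, so its calls and median are a description and no independent test. Of 15 on the list, 11 were tested between the lines by limma on the authors' log2 values. In RMT1 6 were higher, 3 were lower and 2 were not called at an adjusted p of 0.05. Of the 3 lower, 2 had no count in RMT1 and passed the filter through PC12 alone, so their direction was fixed by the filter; of the 9 with a count in RMT1, 6 were higher, 1 was lower and 2 were not called. Over all 278 names tested, 33.1% were called higher and 37.1% lower. Of the 103 names called lower, 35 had 0 counts in both RMT1 libraries. This background is therefore to be set beside the 11 names and not beside the 9. The median log2 difference of the 11 was 0.93, beside -1.12 for all 278. Scaled by library totals the list had 4 higher and 5 lower and its median turned to -0.56, beside -2.54 for all names, with 64 higher and 145 lower in place of 92 and 103.

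The members that were higher are mainly let-7, a family that restrains growth genes such as Lin28 and Hmga2. let-7a-5p, let-7b-5p, let-7c-5p and miR-98-5p are relatives that were high together, so they do not count as separate cases. let-7b-5p had 148492 and 134207 counts in RMT1, against 12566 in EVd and 15594 in EVu, a log2 difference of 3.85 ± 0.11 (SE, limma adjusted p = 0.0103). let-7c-5p was at 3.69, miR-98-5p at 3.65 and let-7a-5p at 2.82 (limma adjusted p of 0.00943, 0.00393 and 0.0145). With library totals these 4 were also called higher, by less: let-7b-5p at 2.36, let-7c-5p at 2.19, miR-98-5p at 2.15 and let-7a-5p at 1.32. miR-26a-5p, which also restrains the cell cycle, was higher by 1.66 ± 0.03 (limma adjusted p = 0.00792), but by 0.16 with library totals (limma adjusted p = 0.264). miR-26b-5p was at 0.89 (limma adjusted p = 0.0138) and at -0.61 with library totals (limma adjusted p = 0.0621). With EVd and EVu as 1 group its limma adjusted p was 0.0124. Leaving RMT1 EV 1 or RMT1 EV 2 out of that fit gave 0.88 and 0.89, neither of them called. miR-30d-5p and miR-138-5p, at 0.91 and 0.93, were not called (limma adjusted p of 0.0622 and 0.0638) and were called lower with library totals, at -0.58 and -0.56 (limma adjusted p of 0.0333 and 0.0404). miR-30d-5p was called higher by edgeR (adjusted p = 2.04e-05), by DESeq2 (adjusted p = 5.03e-06), by limma with a minimum mean of 100 (adjusted p = 0.0279) and by limma with EVd and EVu as 1 group (adjusted p = 0.0459).

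The members that were lower in RMT1 were miR-25-3p, miR-137-3p and miR-199a-3p. miR-25-3p, of the miR-106b cluster, had 314 and 363 counts in RMT1, against 2003 in EVd and 6677 in EVu, a log2 difference of -2.92 ± 0.30 (limma adjusted p = 0.0381). Without EVu the difference was -2.26 and was no longer called. With EVd and EVu as 1 group and all libraries kept, the limma adjusted p of miR-25-3p was 0.00918. Leaving RMT1 EV 1 or RMT1 EV 2 out of that fit gave -2.66 and -3.19, neither of them called. The spread in those fits comes from EVd against EVu and not from the RMT1 pair. miR-137-3p, a neural microRNA, had 0 counts in both RMT1 libraries, against 49 in EVd and 43 in EVu, at least 60.0-fold lower by library totals and 21.3-fold in the authors' scaling. miR-199a-3p, of mesenchymal cells, had 0 in both RMT1 libraries, against 48 in EVd and 75 in EVu, at least 80.2-fold lower by library totals and 27.8-fold in the authors' scaling. With 0 counts in both, the RMT1 pair shows no spread, so the calls of these 2 do not rest on a measured error. Placing both at a floor of 3 counts over RMT1 left the list's median in the authors' scaling at 0.93. That outcome was fixed, because both lay below the median either way. The 4 names not tested, miR-124-3p, miR-214-3p, miR-217-5p and miR-32-5p, had at most 6 counts in any library of the joint table. miR-214-3p and miR-217-5p were at 0 there. In the PC12 table miR-214-3p had 33 counts in EVd and 28 in EVu, and miR-217-5p had 21 and 35.

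Between EVd and EVu, 13 names of the list could be compared in the PC12 table, and miR-25-3p alone passed a fold of 2, at -1.37. That is 0 higher and 1 lower of 13, beside 13.8% higher and 6.99% lower of all 472 names, too few names to set apart from that background. The 13 had a median log2 ratio of -0.18, beside 0.056 for the 472. At a fold of 1.5, 1 of the 13 was higher and 2 were lower, beside 25.8% higher and 18.4% lower of the 472.

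**Figure D5:**
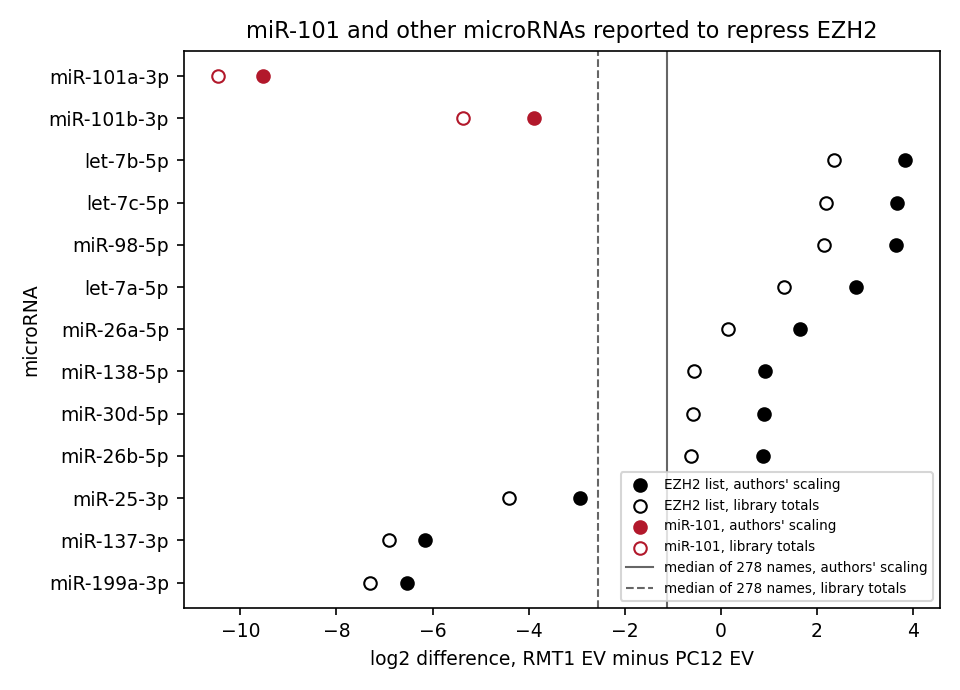
Log2 difference of RMT1 EV minus PC12 EV for miR-101b-3p, miR-101a-3p and the 11 tested names of the EZH2 list, in the authors' scaling (filled) and by library totals (open), with the median of 278 names in each scaling as vertical lines. The miR-101 names lie left of both medians at -3.88 and -9.54, while 8 of the 11 others lie right of them.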

How the data were processed

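QIAzol and miRNeasy were used for vesicle RNA, which was made into libraries with the QIAseq miRNA kit, per the labels' protocols, and RMT1 vesicles were collected by ultracentrifugation. The PC12 table holds raw counts, per the file headers, for EVd and EVu, and log2 normalized values by the authors. The joint table holds log2 values, put on one scale for the 4 libraries by the authors, 0 where nothing was counted. How the reads were aligned, counted and scaled is not given in the sources used here. The submitters' processing notes name mm10, a mouse build, though the names are rat.

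On the linear scale 100% of the joint values above 0 lay within 0.1 of whole multiples of 1 step per library, and dividing by it recovered counts. Totals and the share that 3 counts stand for are given above. Shares have exact Clopper-Pearson 95% intervals, and ratios of pooled shares exact conditional binomial ones. These cover counting error only. EVd over EVu is the log2 ratio of CPM with a pseudocount of 1 CPM.

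RMT1 EV was set against the mean of EVd and EVu by limma 3.58.1 with a mean-variance trend on the 278 names with a mean linear value of at least 10, in 3 groups, with Benjamini-Hochberg adjustment over all 278. Residual variance came from the RMT1 libraries alone (1 degree of freedom, plus 0.547 prior ones), and 35 of the 103 names called lower had 0 counts in both RMT1 libraries. The fit was tested on simulated data in which all names were given a common spread, unlike real libraries. That run does not vouch for the p-values given here. Whether the RMT1 pair was grown separately is not stated, so p-values measure a spread that may be technical. Alternatives were edgeR 4.0.16 and DESeq2 1.42.0 on recovered counts, other scalings, filters and pseudocounts, and leaving out each library.

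The miR-101 names and the lists were chosen with earlier results of these data known. Named were the miR-101 names, the EZH2 list, markers, seed relatives, names within 10000 bases, and the 5 names with the nearest profile to each 3p arm. The pairs differing by 1 base were added after their values were seen.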

Additional observations from a re-analysis of the deposited data

How the results depend on the processing

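The miR-101 3p names stayed lower in RMT1 than in PC12 under each scaling, pseudocount and left-out library tried, but the size moved. From -9.54 for miR-101a-3p and -3.88 for miR-101b-3p, library totals with log2(CPM + 1) gave -10.47 and -5.36, and log2(CPM + 5) gave -9.32 and -5.32. Relative to the median of all tested names in the same scaling, miR-101b-3p was at -2.76 in the authors' scaling and -2.82 with log2(CPM + 1). miR-101b-3p was at -3.80 against EVu alone, -3.95 against EVd alone and, chosen after seeing the data, -4.02 by totals without let-7 and miR-98. The summed 3p names were at -4.78. Without 1 RMT1 replicate, miR-101a-3p ranged from -10.17 without replicate 1 to -8.90 without replicate 2 and miR-101b-3p from -3.92 to -3.83. With 3 and 1 counts in RMT1, depth limits the size for miR-101a-3p. In the table of all 4 libraries EVd over EVu was 0.041 and 0.095 for the 3p arms, beside a median of -0.19 over 246 names. The 5p arms had too few counts for a ratio. The 5p shares there were 0% and 0.0970% (miR-101a) and 0.108% and 0.0446% (miR-101b) in EVd and EVu.

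Without a filter limma called 212 of 762 names lower, and 5 of the 15 of the EZH2 list lower. Added to the list's lower calls were miR-124-3p, with 1 count in EVd and 0 in EVu, and miR-32-5p, with 2 and 6. Both had 0 counts in both RMT1 libraries, so these calls do not rest on a measured error. With a minimum mean of 100 limma tested 157 names and called 68 higher and 69 lower, and of 8 tested names of the list 7 higher and 1 lower, with a list median of 2.24. With library totals it called 5 of the list lower. Leaving out 1 PC12 library gave 82 to 85 names higher and 89 to 90 lower, and 2 to 3 of the list lower. Leaving out 1 RMT1 library needs EVd and EVu as 1 group, a fit chosen after seeing the data, and gave 53 to 56 higher, 95 to 99 lower, 5 of the list higher and 2 lower; miR-25-3p (adjusted p of 0.106 and 0.0772) and miR-26b-5p (0.105 and 0.103) lost their calls there. edgeR called 100 higher and 145 lower, DESeq2 77 and 106. At a fold of 1.5, EVd over EVu had 1 of the list higher and 2 lower, beside 25.8% and 18.4% of all names. No paired analysis was possible because EVd and EVu have 1 library each and the groups share only 1 replicate number.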
